A study of Mus musculus with 20 samples.

Results

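Hair keratin-rich cells of growing mouse skin are described here, single cells in which the keratins of the hair shaft take a large share of the RNA. Cells under 500 detected genes or over 15% mitochondrial UMIs (unique molecular identifiers, each standing for 1 captured RNA molecule) were left out. Among the kept cells, a member was one in which the hair keratins Krt31, Krt33a, Krt33b, Krt34, Krt81, Krt86, Krt32 and Krt82 together made up at least 200 of every 10000 of its UMIs. The inner root sheath keratins Krt71, Krt25 and Krt27 also had to stay under 200 per 10000. The rule selected 53 of 25611 kept cells, 23 of 14156 in the control library and 30 of 11455 in the mutant library.

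The cells came from dorsal skin epidermis in anagen, when the follicle makes new hair, and were captured with 10x Genomics 3' chemistry. The mice of both groups had the genotype Nfatc1-CreER;R26R;mTmG, and those of the mutant group were also Fgf5-/-. Nfatc1-CreER is a tamoxifen-inducible Cre recombinase that is active in cells that express Nfatc1, and mTmG is a reporter whose red membrane protein is replaced by a green one (eGFP) after recombination. The control group (4 listed samples) received tamoxifen on 3 days beginning at postnatal day 21 or 22, and the mutant group (16 listed samples) on 3 days beginning at day 23 or 24. The labels describe neither the Fgf5 allele nor the age at harvest. Each group was deposited as 1 matrix that pools its samples with no map from cells to samples, so each group counts as 1 sample. No difference between the groups could be tested, and every interval below is a 95% interval that covers counting error only.

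The hair shaft has a cortex, which makes up most of its mass, and a cuticle of flat overlapping cells around it. Cortex cells fill with filaments in which acidic hair keratins such as Krt31, Krt33a, Krt33b and Krt34 pair with basic ones such as Krt81, Krt83 and Krt86, and keratin-associated proteins (the Krtap family) form the matrix between the filaments. Krt32 and Krt82 are keratins of the hair cuticle, and S100a3 is a calcium-binding protein best known from cuticle cells. Fgf5 encodes a secreted growth factor that promotes the end of anagen.

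The promoters of 8 shaft genes are shown so that genes with UMIs in most or all of the cells can be set beside genes whose UMIs lay mainly in the cells richest in keratin. Each line gives the 250 bases before the annotated start, 5′ to 3′ on the gene's own strand, which is the minus strand for all 8, from RefSeq in the build GRCm38.p6. Capitals mark the word TATAAA and 4 words that begin with CTTTG, searched on both strands. The first of these is CTTTGAA, and the others are CTTTGAT, then with another base CTTTGTA, and last the word CTTTGTT. The CTTTG words are forms of the core motif bound by LEF1 and TCF proteins, the DNA-binding partners of the Wnt pathway. The first set is Krt31 (chr11:100050552-100050801), Krt33b (chr11:100029869-100030118), Krtap11-1 (chr16:89571184-89571433) and Krtap8-1 (chr16:89487953-89488202). The second set is Krt34 (chr11:100041555-100041804), Krtap3-1 (chr11:99566631-99566880), Krtap22-2 (chr16:89010760-89011009) and Krtap6-5 (chr16:89047900-89048149).
Krt31: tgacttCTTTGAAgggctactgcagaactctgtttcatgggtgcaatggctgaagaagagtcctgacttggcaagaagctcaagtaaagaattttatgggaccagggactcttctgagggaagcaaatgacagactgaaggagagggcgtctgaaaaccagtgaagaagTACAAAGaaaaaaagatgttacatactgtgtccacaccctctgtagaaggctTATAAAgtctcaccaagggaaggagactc
Krt33b: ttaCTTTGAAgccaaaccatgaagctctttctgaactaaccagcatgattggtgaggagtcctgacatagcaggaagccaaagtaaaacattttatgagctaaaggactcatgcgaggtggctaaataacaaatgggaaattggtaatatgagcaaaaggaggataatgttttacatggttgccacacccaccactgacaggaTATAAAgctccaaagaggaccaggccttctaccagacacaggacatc
Krtap11-1: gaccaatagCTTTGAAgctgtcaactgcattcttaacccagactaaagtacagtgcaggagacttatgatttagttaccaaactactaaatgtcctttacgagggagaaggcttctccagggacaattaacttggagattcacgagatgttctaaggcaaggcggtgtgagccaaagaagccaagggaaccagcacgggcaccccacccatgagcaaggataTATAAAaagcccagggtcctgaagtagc
Krtap8-1: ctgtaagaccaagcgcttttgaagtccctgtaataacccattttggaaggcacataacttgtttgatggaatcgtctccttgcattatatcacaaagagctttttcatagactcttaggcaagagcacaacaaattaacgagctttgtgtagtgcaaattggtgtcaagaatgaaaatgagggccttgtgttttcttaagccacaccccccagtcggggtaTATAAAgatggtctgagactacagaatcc
Krt34: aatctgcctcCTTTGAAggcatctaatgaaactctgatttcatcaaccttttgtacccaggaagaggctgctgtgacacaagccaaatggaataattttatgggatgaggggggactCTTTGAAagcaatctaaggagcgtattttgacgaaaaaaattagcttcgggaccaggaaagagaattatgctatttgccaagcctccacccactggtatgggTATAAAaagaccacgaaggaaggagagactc
Krtap3-1: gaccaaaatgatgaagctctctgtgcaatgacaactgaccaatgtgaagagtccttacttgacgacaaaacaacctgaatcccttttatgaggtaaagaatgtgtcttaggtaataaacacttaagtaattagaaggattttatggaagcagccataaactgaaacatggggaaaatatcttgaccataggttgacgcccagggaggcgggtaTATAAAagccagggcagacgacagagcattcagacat
Krtap22-2: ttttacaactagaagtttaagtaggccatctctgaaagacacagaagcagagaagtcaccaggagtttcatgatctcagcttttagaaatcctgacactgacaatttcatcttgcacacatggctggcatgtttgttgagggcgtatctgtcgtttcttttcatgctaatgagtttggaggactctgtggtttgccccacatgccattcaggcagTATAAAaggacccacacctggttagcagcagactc
Krtap6-5: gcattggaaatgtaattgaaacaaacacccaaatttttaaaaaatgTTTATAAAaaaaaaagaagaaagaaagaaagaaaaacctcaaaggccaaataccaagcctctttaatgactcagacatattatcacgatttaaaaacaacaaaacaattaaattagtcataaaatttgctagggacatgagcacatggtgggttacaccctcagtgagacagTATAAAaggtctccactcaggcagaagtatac

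Of 40 hair keratin and Krtap genes with UMIs in the 53 cells, 32 had a promoter entry. In windows of 300 bases (250 before and 50 after the start), TATAAA was present in 71.9% of these 32, against 13.6% of all 32851 windows. CTTTGAA was present in 43.8% of them, against 5.14% of all windows, and at least 1 of the 4 CTTTG words in 59.4%, against 16.9%. The word CAATAAA, searched in the same way, was in 0 of the 32 windows and in 4.60% of all windows. Among the sequences shown, CTTTGAA begins 244 bases before the start of Krt31, 247 before Krt33b and 241 before Krtap11-1, and Krt34 has it at 240 and at 133 bases. None of the CTTTG words is in the 250 bases shown for Krtap8-1, Krtap3-1, Krtap22-2 and Krtap6-5. A match is a run of letters and not a tested binding site, and many of these genes are related copies that lie in clusters.

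The label for these cells was hair cortex and cuticle, and the data went against its cuticle part. The cortex keratins Krt31 and Krt33a had UMIs in all 53 cells. Krt32 and Krt82 together gave 3 of 24674 rule keratin UMIs in the control members and 3 of 40874 in the mutant members, and the highest share in any member was 0.181%. The cells are therefore called hair keratin cells. Krt85 was not analysed here, and Krt40 and Krt84 had no UMI in any of the 53 cells.

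Cells led by the cuticle keratins were present in both libraries below the threshold. Among cells with 100 to 200 rule keratin UMIs per 10000, Krt32 and Krt82 supplied at least 50% of the rule keratins in 3 of 27 control cells and in 7 of 17 mutant cells. Their median S100a3 level was 1013 per 10000 in the control and 1044 in the mutant library, and their median level of Krtap8-1 and of Krt33a was 0. The other 24 control and 10 mutant cells of that range had a median S100a3 level of 55.6 and 58.1 and a median Krtap8-1 level of 230.2 and 155.5. These cells thus carried the matrix gene of the members, and the cells led by Krt32 and Krt82 carried little or none. The highest Krt32 and Krt82 level of any kept cell was 149.0 per 10000 in the control library and 178.9 in the mutant library, under the threshold of 200.

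**Figure D1:**
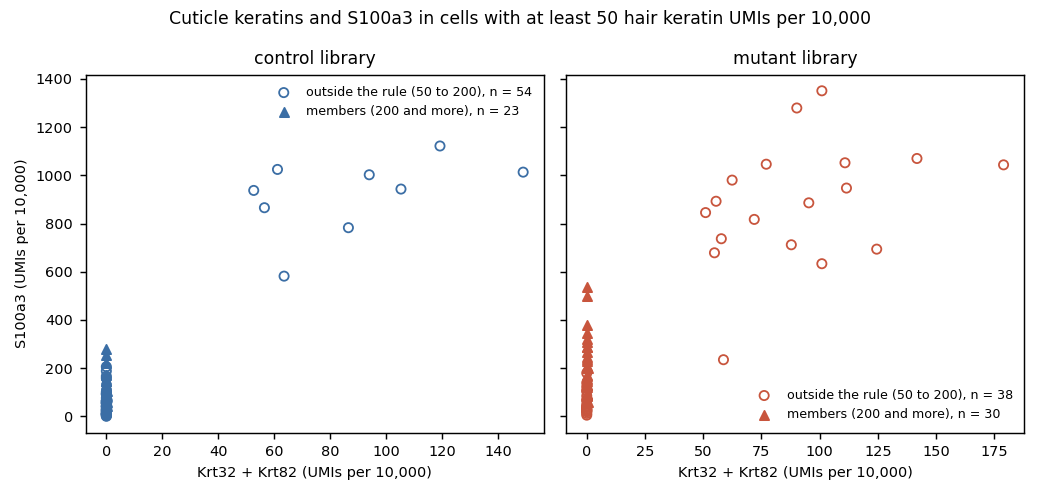
Each point is 1 cell with at least 50 rule hair keratin UMIs per 10,000, with Krt32 plus Krt82 on the horizontal axis and S100a3 on the vertical axis, both in UMIs per 10,000. Members (filled triangles, n = 23 and 30) sit at the left edge in both libraries, and the cells away from it are all outside the rule (open circles) and reach 1351 S100a3 UMIs per 10,000.

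In the control library the members nearest the threshold had 200.5, 236.2 and 236.5 rule keratin UMIs per 10000, and the nearest cells outside had 195.9, 191.0 and 189.5. In the mutant library the nearest members had 200.8, 202.2 and 212.8, and the nearest cells outside had 178.9, 174.4 and 167.9. No kept cell reached 200 for both keratin groups, so the limit on inner root sheath keratins removed none.

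Members were rich in UMIs, with a median of 25936 (2469 to 59907) in the control library and 22869 (1721 to 60048) in the mutant library, against 5691 and 6167 in all other cells. Hair keratin and Krtap genes supplied 16.2% and 21.6% of the members' UMIs, against 0.123% and 0.0594% in all other cells. The targeted gene Fgf5 had no UMI in the members of either library, which allows up to 4.69 and 4.57 CPM (a gene's UMIs scaled to a fixed total for the summed cells, the usual counts-per-million unit), and since the allele is not described its reads check nothing. The 5 melanocyte markers summed to 59.4 CPM in control and 112.7 CPM in mutant members, against 7082 and 12294 CPM in all other cells. The 8 inner root sheath markers summed to 289 and 144.6 CPM, the 5 T cell markers to 42.2 and 3.04, the 5 fibroblast markers to 12.5 and 63.9, and the 3 sebaceous markers to 0 in both. The T cell marker cells, which should lack hair keratins, give the background: 11.3% of 2340 control cells (median depth 2291 UMIs) and 10.97% of 1012 mutant cells (1974 UMIs) held a rule keratin UMI. The doublet caller Scrublet marked none of the 53 cells, and no member barcode occurred in both libraries. Scrublet marked 2.59% and 3.95% of all kept cells, below the 11.3% and 9.16% it was set to expect. Its result therefore does not clear the members of doublets.

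The members made up 0.162% of kept control cells (0.103% to 0.244%) and 0.262% of kept mutant cells (0.177% to 0.374%). The log2 ratio of mutant over control was 0.69 (-0.14 to 1.54), and its interval includes 0. The ratio moved with the threshold, from 0.22 (-0.39 to 0.82) at 100 per 10000, a set of 50 control and 47 mutant cells that takes in cuticle keratin cells, to 1.38 (0.17 to 2.71) at 400 per 10000, with 9 and 19 cells. Cells with at least 200 inner root sheath keratin UMIs per 10000, from the sheath that encloses the growing shaft, numbered 248 and 52. Of the cells of both keratin groups, members were 8.49% in the control library (5.46% to 12.5%) and 36.6% in the mutant library (26.2% to 48.0%). The part of cell recovery during dissociation and capture in these shares was not tested.

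The rule keratin level, which chose the members, ranged from 200.5 to 659 per 10000 in the control library (median 350.7) and from 200.8 to 1580 in the mutant library (median 484.2). In the control library 17 cells lay between 200 and 500 and 6 between 500 and 1000. In the mutant library 16 lay between 200 and 500, 9 between 500 and 1000, and 5 at 1118, 1143, 1218, 1549 and 1580. The 5 richest cells had 7181 to 35715 UMIs, and the matrix does not show whether they came from 1 mouse or several.

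Krtap8-1, which encodes a glycine- and tyrosine-rich matrix protein, was the most abundant gene outside the rule. Its level per cell was 175.6 to 718 per 10000 over the control cells (median 510.1) and 161.8 to 1105 over the mutant cells (median 464.0), and the groups overlapped. Summed over the cells it stood at 52955 CPM (52392 to 53521) and 52625 CPM (52072 to 53183), a log2 ratio of -0.01 (-0.03 to 0.01), with -0.49 in cells of 200 to 500 and -0.16 in cells of 500 to 1000. Krtap7-1, of the same protein class, had 29694 and 29355 CPM (-0.02, -0.05 to 0.01). The basic keratin Krt83 had 18722 and 25602 CPM (0.45, 0.42 to 0.49), and Krt87 8797 and 11021 CPM (0.33, 0.27 to 0.38). In cells of 200 to 500 both turned direction, with Krt83 at 17039 and 14044 CPM and Krt87 at 8011 and 6394 CPM. In cells of 500 to 1000 Krt83 was at 24842 and 29761 CPM and Krt87 at 11653 and 13314 CPM. These 4 genes, with Krtap11-1, Krt31 and Krt33a, had at least 3 UMIs in all 53 cells. The 3' end of Krt87 shares 52.99% of its 50-base words with the gene model Gm49425, so its value is uncertain.

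Other shaft genes were concentrated in the 5 richest cells. Krt34, an acidic keratin of the rule, was at 0 to 15.6 per 10000 in the control cells and at 0 to 22.6 in the 25 mutant cells below 1000. In the 5 richest cells it was at 143.9, 120.9, 135.1, 226.0 and 190.7, and these cells held 82.6% of its UMIs in the mutant members. Krt81 was at most 121.5 in a control cell and 142.5 in a mutant cell below 1000, and at 263.4 to 390.1 in the 5 richest. Krt86 was at most 18.5 and 16.1 in those cells, and at 50.7 to 150.1 in the 5 richest. Since these keratins belong to the rule that ordered the cells, their levels are a description.

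The rule used no Krtap gene, and some Krtap genes were strongly concentrated in the same cells. Krtap8-1, Krtap7-1 and Krtap11-1 were less so, with 26.6% to 32.6% of their mutant UMIs there. These 5 cells held 114020 of the 656853 UMIs of the mutant members. Krtap8-1 was at 92791 CPM in them, against 36588 CPM in mutant cells of 200 to 500 and 52646 CPM in those of 500 to 1000. Krtap3-1, which encodes a high-sulfur matrix protein, was at most 0.422 per 10000 in a control cell and 7.08 in a mutant cell below 1000. In the 5 richest cells it was at 84.8, 22.4, 125.3, 109.4 and 101.9, which was 94.7% of its UMIs in the mutant members. Krtap22-2 was at most 5.84 in a control cell and 21.3 in a mutant cell below 1000, and at 33.6 to 173.2 in the 5 richest. All 5 cells thus stood above every other member for both genes. Krtap16-3 was uneven among them, at 303.8 and 173.1 in 2 cells and at 8.41 or less in the other 3. Krtap15 was high in the same 2 cells, at 479.4 and 552.8 against 17.6 to 101.7 in the other 3, and it reached 295.0 in a control cell. The number of Krtap genes detected per cell was 3 to 11 in the control library (median 7) and 3 to 21 in the mutant library (median 9), and the 5 richest cells had 13 to 21.

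**Figure D2:**
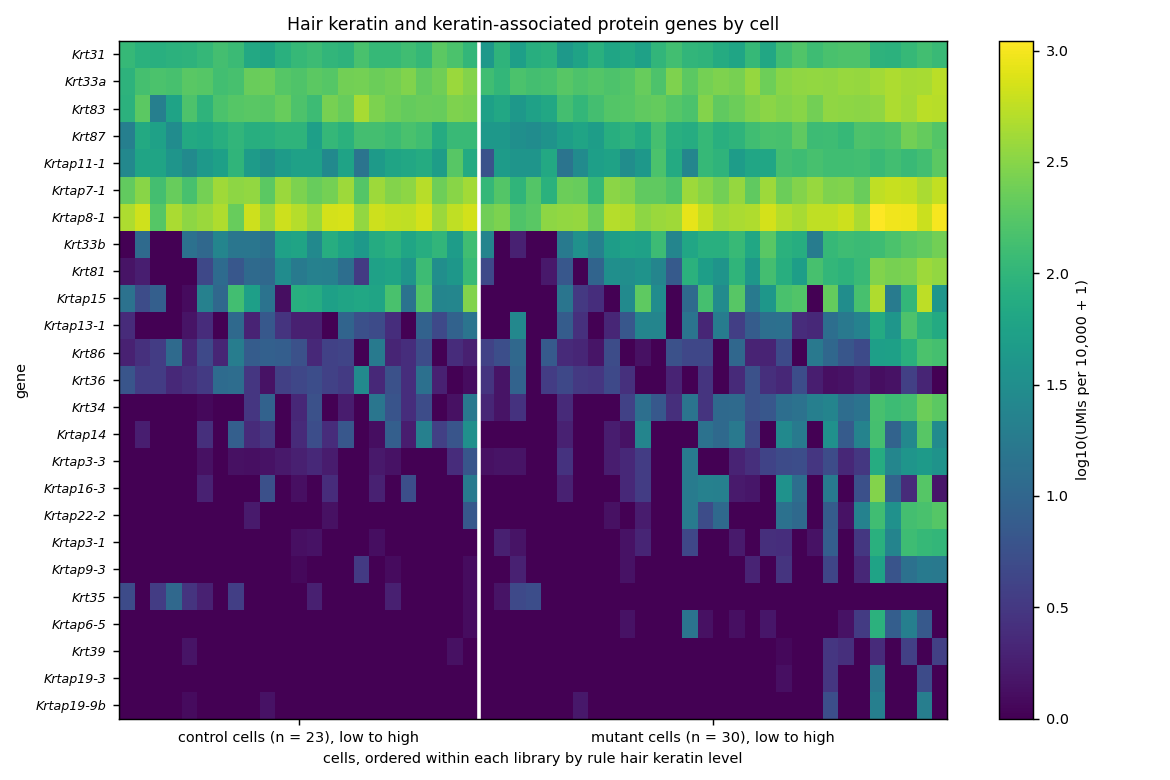
Rows are hair keratin and Krtap genes, columns are the 53 cells ordered by rule keratin level within each library, and the colour is log10 of UMIs per 10,000 plus 1. The upper rows from Krt31 to Krtap8-1 are filled in all columns, while Krt34, Krtap22-2 and Krtap3-1 are brightest in the last 5 mutant columns.

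Krt36 and Krt35 had their higher levels at the low end of the keratin range. Krt36 was at 328.6 CPM in control and 227.4 CPM in mutant cells of 200 to 500, at 210.0 and 128.4 CPM in cells of 500 to 1000, and at 61.4 CPM in the 5 richest. Krt35, a keratin made early in the forming shaft, had at least 3 UMIs in 7 of the 53 cells, 6 of them control, and no UMI in any mutant cell above 500. In cells of 50 to 100 per 10000 that were not led by cuticle keratins, its median level was 51.8 per 10000 in 21 control cells and 15.3 in 10 mutant cells.

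Genes outside the shaft set also varied with the rule keratin level. Rank correlations with that level were taken over the 19 control and 24 mutant cells with at least 10000 UMIs. They used levels per UMI outside the shaft genes and are a description over cells that share a library. They covered 1013 genes, from which the genes below are examples, and none was tested. The phospholipase gene Pla2g2e had rho of 0.72 in the control and 0.80 in the mutant cells, Psors1c2 had 0.70 and 0.92, and Foxn1, a transcription factor required for a normal hair shaft, had 0.66 and 0.64. Negative values were found for the ribosomal scaffold gene Rack1 (-0.63 and -0.90), the Hsp70 family chaperone gene Hspa2 (-0.65 and -0.59) and the elongation factor gene Eef1a1 (-0.49 and -0.81). Mt4, the metallothionein of squamous epithelia, did not follow 1 direction. Its median in mutant cells was 218.0 per 10000 at 200 to 500 and 267.1 at 500 to 1000, but 56.6 (18.0 to 127.4) in the 5 richest. Its rho was 0.91 over the 20 mutant cells below 1000 and 0.28 over all 24.

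**Figure D3:**
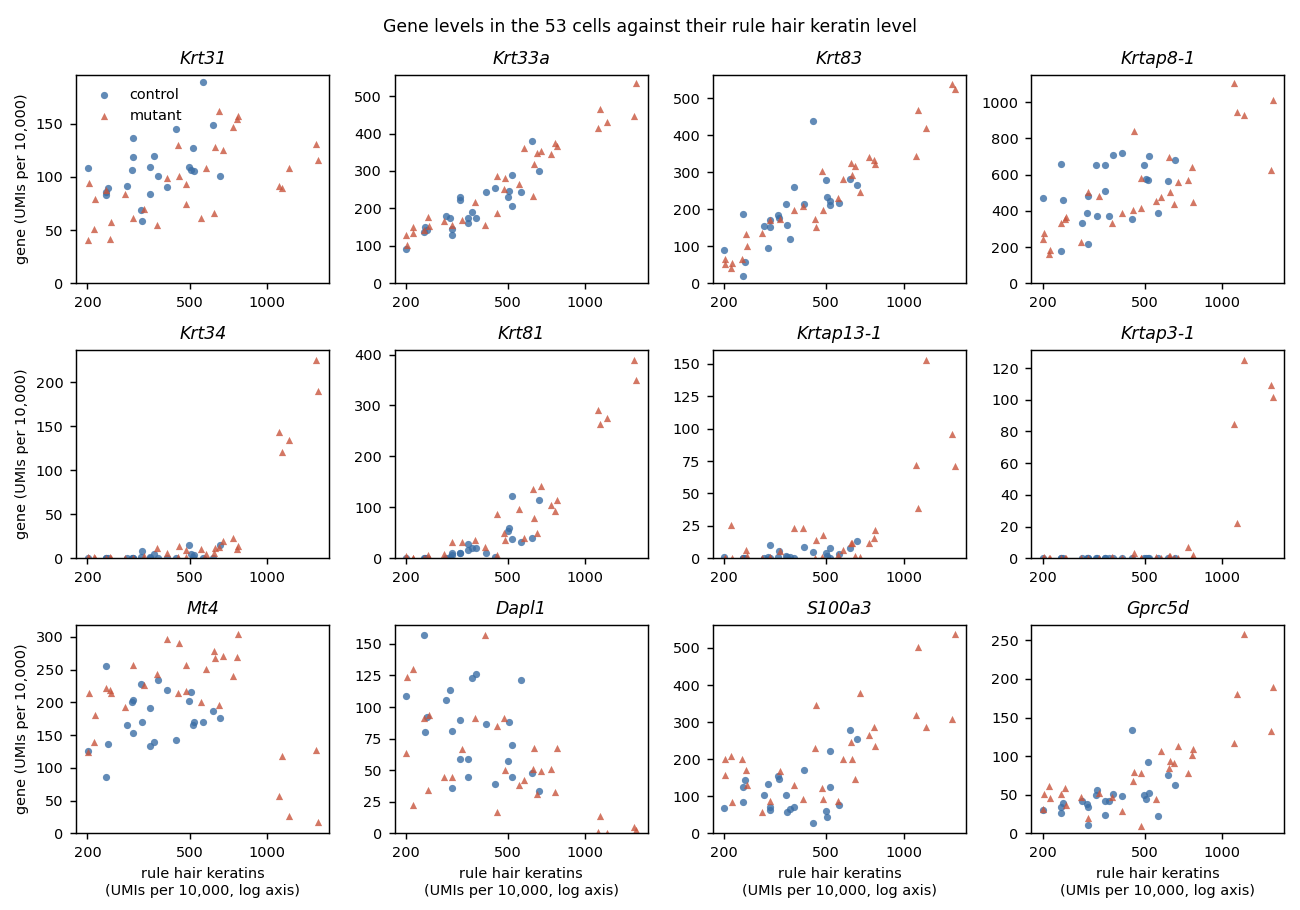
Each panel plots 1 gene in UMIs per 10,000 (vertical axis) against the rule hair keratin level of the cell (horizontal log axis), for 23 control cells (circles) and 30 mutant cells (triangles). Krt34 and Krtap3-1 are low up to the 5 mutant cells above 1000, and in those 5 cells Mt4 and Dapl1 are low.

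The 5 richest cells were set beside the other 25 mutant cells on UMIs outside the shaft genes. Here and below, a gene is called higher or lower if it differed at least 2-fold, the interval's nearer bound passed 1.5-fold, and the higher of the 2 levels was 100 CPM or more. Of 1429 genes compared, 239 were higher (16.7%) and 110 lower (7.7%) in the 5 cells, which were chosen by their keratin level, so the counts are a description. Shaft genes took 45.2% of all UMIs in the 5 cells and 16.6% in the other 25, and ribosomal protein genes took 21.5% and 33.5% of the remainder. In CPM of the UMIs outside the shaft genes, Psors1c2 was at 29906 against 5660, the orphan receptor gene Gprc5d at 28337 against 8313, and Foxn1 at 865 against 364. Dapl1 was lower, at 945 against 7480, and no more than 14.01 per 10000 in any of the 5 cells. Mt4 at 14473 against 28171 and the stratifin gene Sfn at 4018 against 7301 fell short of the 2-fold limit.

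Mutant over control ratios were then formed on the sums over all members. Of 1131 genes with at least 100 CPM in either library, leaving out the 11 rule genes, 73 were higher in the mutant members (6.45%) and 54 lower (4.77%), and the median log2 ratio was -0.18. With TMM factors the median was 0.12, with 114 genes higher and 27 lower, and with median-of-ratios factors it was 0.05, with 102 and 30. The higher genes thus made up 57.5% of the calls in CPM, 80.9% with TMM factors and 77.3% with median-of-ratios factors. Of 15 Krtap genes compared, 11 were higher and none lower, with a median log2 ratio of 4.40. Without the 5 richest cells, 5 of 9 Krtap genes compared were higher and none lower. In that setting 4.38% of all 1118 genes compared were higher. Within 200 to 500, 3 of 7 Krtap genes were higher, and within 500 to 1000, 4 of 11. Over all genes the shares higher in these ranges were 2.65% and 3.44%.

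Unnamed gene models, ribosomal and mitochondrial genes and genes that may be free RNA were left out of the ranking of single genes, also where their ratios were large. Among those left out, the model Gm10229 had 0 and 2460 CPM and Gm11565 14.1 and 610 CPM. The 12 genes with the largest higher ratios among the rest were 8 Krtap genes and 4 globin genes. Krtap3-1 had 6.25 CPM in control and 1512 CPM in mutant members (7.92, 6.56 to 9.80), and Krtap22-2 had 37.5 and 2402 CPM (6.002, 5.42 to 6.65). Krtap6-5 rested on 1 control UMI, at 1.56 and 586 CPM (8.55, 6.07 to 13.86). The log2 ratio of Krtap1-5 was 6.63 (5.07 to 8.91), that of Krtap9-3 6.36 (4.99 to 8.24) and that of Krtap19-9b 6.07 (4.19 to 9.13). The 5 richest cells held 99.3%, 90.8% and 89.9% of the mutant UMIs of these 3 genes, and the direction turned for Krtap1-5 without those cells (-0.35) and for Krtap19-9b in cells of 200 to 500 (-0.19). Krtap19-3 had no UMI in the control members and 111.1 CPM in the mutant members, at least 4.57 higher on the log2 scale against a floor of 3 UMIs over the group. Krtap16-3 had 140.6 and 2978 CPM (4.40, 4.10 to 4.73), with 2.53 in cells of 200 to 500 and 1.24 in cells of 500 to 1000. The globin genes Hba-a1, Hba-a2, Hbb-bs and Hbb-bt rested on 1 mutant cell with 1300 globin UMIs per 10000, against 13.9 in the next cell, and without it their log2 ratios were -0.57, -0.98, -0.91 and -1.15.

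Fewer genes were called within the ranges of keratin level, which matched the libraries only in part. In cells of 500 to 1000 the median rule keratin level was 540.3 in control (505.4 to 659.0) and 649.6 in mutant cells (554.6 to 774.5). Ratios in that range can therefore still hold a difference in keratin level. In cells of 200 to 500 the medians were 324.0 in control and 291.3 in mutant cells. In cells of 200 to 500, 30 of 1132 genes were higher (2.65%) and 25 lower (2.21%), and in cells of 500 to 1000, 40 of 1162 were higher (3.44%) and 37 lower (3.18%). Of the 73 higher genes, 18 and 24 were also called in the same direction in these ranges, and of the 54 lower genes 20 and 17. The ranges hold fewer UMIs, and by size alone 40 and 47 of the higher genes and 29 and 33 of the lower genes still differed at least 2-fold in the same direction.

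**Figure D4:**
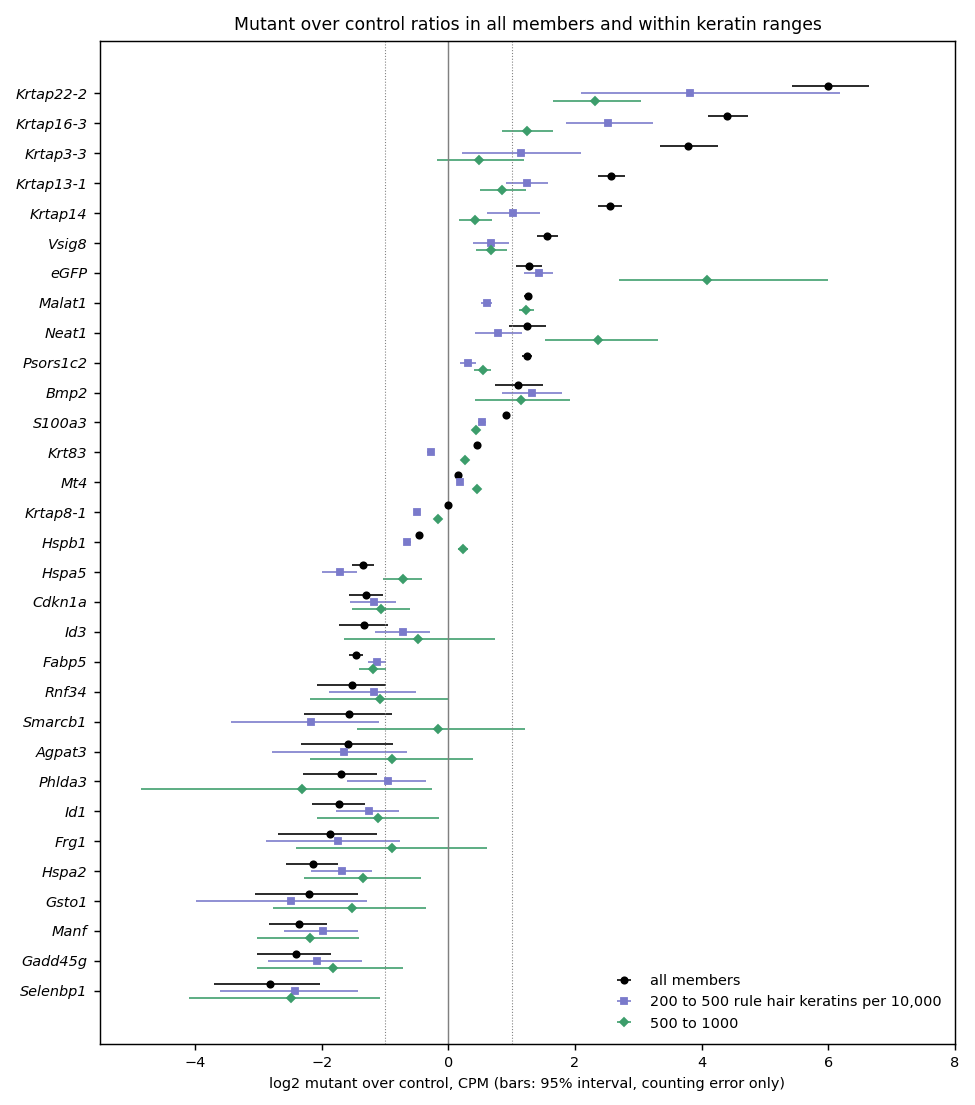
Points are log2 ratios of mutant over control CPM in all members (black circles), in members of 200 to 500 (squares) and in members of 500 to 1000 rule keratin UMIs per 10,000 (diamonds), with bars for 95% intervals from counting error only. The Krtap genes at the top lie nearer 0 within the ranges than over all members, whereas Fabp5, Manf, Gadd45g and Selenbp1 lie below -1 in all 3 sets.

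Fabp5 (chr3:10012548-10016607), which encodes a fatty acid-binding protein of keratinocytes, was lower in the mutant members. Its level per cell was 14.6 to 81.0 per 10000 in the control cells (median 36.7) and 1.20 to 36.3 in the mutant cells (median 13.3), and the groups overlapped. Its sums were 3791 CPM (3642 to 3945) and 1385 CPM (1297 to 1478), a log2 ratio of -1.45 (-1.56 to -1.34), with -1.13 and -1.20 in the 2 ranges and -0.87 in all other cells. Manf (chr9:106838312-106891979), which encodes a protein of the endoplasmic reticulum stress response, had UMIs in 22 of 23 control and 19 of 30 mutant cells. Its level per cell was 0 to 9.75 per 10000 in the control and 0 to 4.30 in the mutant cells, with sums of 392.0 and 76.1 CPM (-2.36, -2.83 to -1.92). Its ratio was -1.99 and -2.19 in the 2 ranges, against -0.53 in all other cells. Hspa5, a chaperone gene of the same compartment, had 1442 and 565 CPM (-1.35, -1.53 to -1.18), with -1.71 and -0.72 in the ranges.

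Hspa2 (chr12:76404176-76406938) had UMIs in all 23 control cells, at 1.28 to 6.36 per 10000, and in 18 of 30 mutant cells, at 0 to 4.93. Its sums were 417.0 and 94.4 CPM (-2.14, -2.57 to -1.74), with -1.67 and -1.35 in the ranges, and it had no UMI in the 5 richest cells. Gadd45g, a growth arrest and stress gene, had 251.5 and 47.2 CPM (-2.41, -3.02 to -1.85) and a ratio of -1.80 in all other cells. Spata7 had -3.56 in members and -3.04 in all other cells. Hspa2 had -0.94 in all other cells. Taken over all other cells, Hspa2, Gadd45g and Spata7 were thus also lower, each by less than in the members. Hspa2 had -1.41 and Gadd45g -1.44 in the inner root sheath keratin cells alone. Spata7 had -4.70 there, a larger drop than in the members. Gsto1, a glutathione transferase gene, had 118.7 and 25.9 CPM (-2.20, -3.05 to -1.42), against 0.41 in all other cells. Selenbp1, a selenium-binding protein gene, had 160.9 and 22.8 CPM (-2.82, -3.71 to -2.03). Its ratio was -1.18 in all other cells and -3.36 in the inner root sheath keratin cells. However, its 3' ends share 42.2% of their 50-base words with other genes, most with Selenbp2. The other 6 lower genes of the ranking were Id1, Frg1, Phlda3, Agpat3, Smarcb1 and Rnf34, from -1.88 to -1.52. Left out of it were the models Gm10260, with 109.3 and 0 CPM, and 4833427G06Rik, with 104.7 and 13.7 CPM. Apoe, with 412.4 and 124.8 CPM, was also left out, as it may be free RNA. In all other cells the ratios were -8.31 for Gm10260, -3.67 for 4833427G06Rik and -0.67 for Apoe.

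The genes of the ranking were also read in the other cells of the same libraries. The 48 lower genes had a median log2 ratio of -0.42 in all other cells and -0.48 in the inner root sheath keratin cells. Of them, 40 and 41 had the same sign there, and 7 and 10 were at least 2-fold lower. The 66 higher genes had a median of 0.27 in all other cells, where 51 had the same sign and 13 were at least 2-fold higher. In the inner root sheath keratin cells 57 of them had a value, with a median of 0.55. There 44 had the same sign and 14 were at least 2-fold higher. No share over all genes is given beside these counts, so they are a description.

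Of 18 listed transcription factors of the shaft, 6 were compared and none was called. Hoxc13, a regulator of hair keratin genes, had 240.5 and 132.4 CPM (-0.86, -1.26 to -0.47), Foxn1 174.9 and 333.4 CPM (0.93, 0.60 to 1.27), and Msx2 199.9 and 169.0 CPM (-0.24, -0.62 to 0.14). The Wnt pathway factor Lef1 was below the level minimum, at 95.3 and 24.4 CPM. Of 18 Wnt pathway genes, Wnt3, Ctnnb1 and Nkd1 were compared and none was called.

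Of 16 BMP pathway genes 5 were compared, 1 higher and 2 lower, with a median log2 ratio of -0.65, beside 6.45% higher, 4.77% lower and a median of -0.18 over all 1131 genes. The ligand gene Bmp2 was higher, at 134.3 and 289.3 CPM (1.11, 0.73 to 1.49), with 1.32 and 1.14 in the 2 ranges. The BMP target genes Id1, at 317.1 and 95.9 CPM (-1.73, -2.16 to -1.31), and Id3, at 303.0 and 120.3 CPM (-1.33, -1.73 to -0.95), were lower. In the 2 ranges Id1 had -1.26 and -1.11 and Id3 -0.72 and -0.48. Bmp2 and Id1 were called in cells of 200 to 500 but not in cells of 500 to 1000, and Id3 was not called in either. In all other cells Id1 had -1.41 and Id3 -1.01. Of 15 FGF and ERK pathway genes only Egr1 was compared, at 279.6 and 194.9 CPM (-0.52, -0.86 to -0.19). Of 12 heat shock genes 10 were compared, with 1 higher (Hspa1b) and 2 lower (Hspa5 and Hspd1), and of 16 immediate early genes 11 were compared, with none higher and 2 lower (Ier2 and Ier3), beside the same shares over all genes. The median log2 ratio was -0.33 for the heat shock and -0.50 for the immediate early genes. The chaperone gene Hspa2, lower in the mutant members (-2.14), was not on the heat shock list. No Notch or cell division gene reached the level minimum.

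S100a3 and the surface genes of the shaft were abundant. S100a3 had 11925 and 22306 CPM (0.90, 0.86 to 0.94) and Gprc5d 4467 and 8425 CPM (0.92, 0.85 to 0.98), both under the 2-fold limit. Vsig8, which encodes an immunoglobulin-domain surface protein, was higher, at 628 and 1856 CPM (1.56, 1.40 to 1.73), with 0.68 in each range. Psors1c2 was also higher, at 2866 and 6746 CPM, with 0.31 and 0.54 in the ranges. The cross-linking enzyme gene Tgm3 had 331.1 and 293.8 CPM (-0.17, -0.46 to 0.12), and the calmodulin-like gene Calml3 had 628 and 671 CPM (0.10, -0.10 to 0.30).

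Division genes were at low levels in the members. The G2/M list summed to 43.7 and 65.5 CPM in members, against 419 and 369 CPM in inner root sheath keratin cells, and the S phase list to 82.8 and 60.9 CPM, against 306 and 225. With each cell thinned to 1500 UMIs, 1 of 23 control and 1 of 30 mutant members had at least 2 S phase UMIs, and 0 of 23 and 0 of 30 had 2 G2/M UMIs, which allows shares of up to 14.8% and 11.6%. Without thinning, 11 of 23 and 7 of 30 had at least 2 S phase UMIs, and 8 of 23 and 5 of 30 had at least 2 G2/M UMIs.

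The green reporter was detected in members of both libraries. At least 1 eGFP UMI was found in 11 of 23 control members (47.8%, 26.8% to 69.4%) and in 24 of 30 mutant members (80.0%, 61.4% to 92.3%), with sums of 405 and 977 CPM (1.27, 1.06 to 1.49). In inner root sheath keratin cells the shares were 71.0% and 82.7%, and in all other cells, at lower depth, 42.5% and 51.0%. No cell type known to lack the reporter was at hand for a background share. At least 10 eGFP UMIs were found in 6 of 23 control and 14 of 30 mutant members. The day of tamoxifen differed between the groups, and its part cannot be told apart from that of genotype.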

How the data were processed

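Per the submitters' processing notes, the authors used Cell Ranger 3.0.2, Seurat 3.0.0 and 3.1.0 and the build GRCm38 (mm10). The deposited values are whole-number UMI counts per gene and barcode, 1 matrix per group, for 16973 control and 13411 mutant barcodes. Filters removed 2430 and 1396 barcodes with few genes and 387 and 560 with high mitochondrial shares. Of 31055 features, 30934 matched GENCODE vM21. The members and gene lists were chosen with earlier results of these data known.

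Counts were summed over members per library (640228 and 656853 UMIs) and scaled to CPM. Levels carry exact Poisson intervals, ratios exact conditional intervals and shares Clopper-Pearson intervals, and UMIs of 1 pooled matrix give no replicate error. Genes named are the 12 largest calls in each direction, leaving out rule, ribosomal and mitochondrial genes, unnamed models and genes under 10% of their level in another cell group (possible free RNA), then the 10 most abundant and members of the lists. Scrublet marked 2.59% and 3.95% of all kept cells. Python 3.11.15, scipy 1.17.1, scanpy 1.11.5 and R 4.3.3 with edgeR 4.0.16 (TMM factors only) were used. Other scalings, thresholds and subsets of cells were tried.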

Additional observations from a re-analysis of the deposited data

How the results depend on the processing

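Each group is 1 pooled matrix, so these limits concern counting and the choice of cells. No paired analysis was possible because each group is 1 matrix and the replicate numbers only name samples. The log2 ratio of the member share was 2.11 (1.28 to 2.96) with members and inner root sheath keratin cells as the denominator, against 0.69. That denominator itself differed between the libraries. Inner root sheath keratin cells were 1.75% of kept control and 0.454% of kept mutant cells (log2 ratio -1.95, -2.41 to -1.51). Against 73 higher and 54 lower genes there were 114 and 27 with TMM factors, 23 and 16 with cells thinned to 1500 UMIs, 112 and 93 at 50 CPM, 40 and 28 at 200 CPM, and 30 and 25 in cells of 200 to 500. There were 40 higher in cells of 500 to 1000. The lower count was 30 with median-of-ratios factors, 83 at a threshold of 400, 33 without the cells above 1000 and 114 by medians over cells. Of 41 named called genes, 38 lost their call in at least 1 of 18 alternatives, of which 12 were planned and the others were chosen after seeing the data. Fabp5 kept its call in all 18 and Krtap16-3 in the 17 that gave it a value, and Krtap19-3 had no finite ratio in any. Direction reversed for Hba-a1, Hba-a2, Hbb-bs and Hbb-bt at a threshold of 400 (-0.88, -0.55, -1.27 and -3.20), in cells of 500 to 1000 (-1.48, -0.31, -2.07 and -0.90) and without the globin-rich cell (-0.57, -0.98, -0.91 and -1.15), and for Hbb-bs by medians (-0.58). It also reversed for Krtap1-5 with ranges weighted equally (-0.53) and without the cells above 1000 (-0.35), for Krtap19-9b in cells of 200 to 500 (-0.19) and for Frg1 after thinning (0.032). These reversals were counted among called genes only. Krt83 and Krt87, which were not called, also turned direction in cells of 200 to 500. The cause was not tested. The equal weighting used the 2 ranges with cells in both libraries, and weighting cortex-leaning and cuticle-leaning cells equally was not run because no member was cuticle-leaning.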

Other observations

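Among genes outside the shaft set, the nuclear RNAs Malat1 and Neat1 were higher in the mutant members. Malat1 had 4964 CPM in control and 11864 CPM in mutant members (log2 ratio 1.26, 1.20 to 1.32) and Neat1 211 and 499 CPM (1.24, 0.95 to 1.54). In cells of 200 to 500 their ratios were 0.60 and 0.79, short of the 2-fold limit, in cells of 500 to 1000 they were 1.23 and 2.36, and in all other cells 0.27 and 1.62. The cell cycle inhibitor gene Cdkn1a was lower in the mutant members, at 623 and 254 CPM (-1.29, -1.56 to -1.03), with -1.18 in cells of 200 to 500 and -1.07 in cells of 500 to 1000, and had 0.10 in all other cells.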
